A study of Homo sapiens with 6 samples.

Results

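Transcripts of 10 genes that mark neuroendocrine cells or regulate lineage plasticity were compared between parental LNCaP cells and LNCaP-enzaR, its enzalutamide-resistant derivative. The genes were taken by symbol from the 35554 genes of the count table, and all 10 were present. They are the markers ENO2, SYT4, SYP, NCAM1 and DDC, the transcription factors SOX2, SOX11, ONECUT2 and REST, and the chromatin enzyme EZH2. LNCaP is an established line from a metastasis of human prostate cancer, and enzalutamide blocks androgen signalling. Both groups, parental (n = 3) and LNCaP-enzaR (n = 3), are LNCaP cells labelled as biological replicates, which were grown in flasks and harvested before confluence. LNCaP-enzaR was obtained by culture under constant enzalutamide, followed by maintenance at a lower dose. Drug exposure at harvest and clonality of the line are not given in the sources used here. A single resistant line was sequenced, so p-values measure the spread between flasks of these lines.

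Neuroendocrine cells of the prostate are rare cells that package amines and peptides into dense-core vesicles, and prostate cancers under androgen blockade can take on some of their features, a process called lineage plasticity. REST is a zinc finger repressor that keeps neuronal genes off outside the nervous system. EZH2 is the methyltransferase of Polycomb repressive complex 2 (PRC2), which places the H3K27 methylation mark on silenced genes, while SOX2, SOX11 and ONECUT2 are DNA-binding factors active in neural or neuroendocrine tissue.

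The start-site windows of the genes with large changes are shown because they differ in CG content. RefSeq windows on GRCh38.p14, which run from 250 bases before to 50 bases after a start, were found for 8 of the 10 genes, in 11 windows. NCAM1 and SOX11 had none. Each window is written 5′ to 3′ on the gene's strand, and capitals mark CG dinucleotides.
ENO2 (chr12:6914330-6914629, plus strand): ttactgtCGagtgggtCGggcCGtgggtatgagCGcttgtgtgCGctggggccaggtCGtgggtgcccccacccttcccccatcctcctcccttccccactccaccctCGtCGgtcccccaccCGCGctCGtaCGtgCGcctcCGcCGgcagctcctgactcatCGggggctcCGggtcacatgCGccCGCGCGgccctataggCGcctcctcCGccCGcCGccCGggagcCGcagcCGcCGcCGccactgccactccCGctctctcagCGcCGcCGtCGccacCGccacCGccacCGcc
SYT4 (chr18:43277441-43277740, minus strand): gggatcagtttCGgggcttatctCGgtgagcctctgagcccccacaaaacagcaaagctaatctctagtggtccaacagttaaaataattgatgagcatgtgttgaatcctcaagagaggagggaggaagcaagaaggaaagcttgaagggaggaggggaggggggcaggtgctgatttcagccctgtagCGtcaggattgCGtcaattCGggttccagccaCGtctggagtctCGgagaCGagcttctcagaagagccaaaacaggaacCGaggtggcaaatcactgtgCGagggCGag
DDC, distal start (chr7:50565356-50565655, minus strand): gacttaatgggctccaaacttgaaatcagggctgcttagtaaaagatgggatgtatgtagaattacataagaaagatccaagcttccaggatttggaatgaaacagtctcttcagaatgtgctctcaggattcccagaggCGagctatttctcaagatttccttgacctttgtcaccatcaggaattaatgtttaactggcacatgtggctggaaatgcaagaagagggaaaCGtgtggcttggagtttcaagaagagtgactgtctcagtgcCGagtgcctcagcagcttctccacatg
DDC, proximal start (chr7:50561022-50561321, minus strand): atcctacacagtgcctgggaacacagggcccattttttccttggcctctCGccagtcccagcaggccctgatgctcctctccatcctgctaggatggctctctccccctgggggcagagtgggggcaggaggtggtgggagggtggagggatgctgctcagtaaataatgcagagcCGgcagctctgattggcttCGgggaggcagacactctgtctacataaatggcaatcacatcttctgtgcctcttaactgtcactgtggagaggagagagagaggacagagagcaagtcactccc
EZH2, distal start (chr7:148884242-148884541, minus strand): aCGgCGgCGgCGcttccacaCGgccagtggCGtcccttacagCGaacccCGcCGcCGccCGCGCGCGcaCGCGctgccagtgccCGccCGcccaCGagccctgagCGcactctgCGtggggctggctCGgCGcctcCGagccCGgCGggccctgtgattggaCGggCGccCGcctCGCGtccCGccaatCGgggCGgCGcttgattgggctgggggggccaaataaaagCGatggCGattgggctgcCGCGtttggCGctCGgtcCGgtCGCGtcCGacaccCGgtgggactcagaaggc
The windows shown for ENO2 and EZH2 held 38 and 46 CG dinucleotides, that of SYT4 held 11, and each DDC window held 3, against a median of 14 over 35116 windows. Counts per gene do not separate the starts of DDC or EZH2. The distal EZH2 window holds the E2F-type letters TTTGGCGC beginning at base 2 after the start, which 0.652% of all windows hold on either strand. It overlaps none of the other motifs searched, and the window of the other EZH2 start, with 45 CG dinucleotides, does not hold these letters. The core of the REST element (AGCACC, any 2 bases, GGACAG) was searched on both strands and was in 0.0570% of all windows. None of the 11 windows of the set held it, nor a version with up to 2 mismatches, which 4.42% of all windows held. These are matches of letters only.

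Counts per library ranged from 77759122 to 98616465, and 19711 genes were tested after removal of genes with low counts. Log2 CPM values correlated at 0.990 to 0.992 between libraries of a line and at 0.921 to 0.926 between lines, across genes. CPM are counts scaled to a library size of 1000000 after correction by the trimmed mean of M-values, and log2FC is the log2 fold change of LNCaP-enzaR over parental. A gene was past the threshold at a Benjamini-Hochberg adjusted p of at most 0.05 (edgeR quasi-likelihood test) and a change of at least 1.5-fold. Mitochondrial transcripts made up 6.72% to 7.06% of parental and 14.8% to 15.5% of LNCaP-enzaR counts, and leaving them out changed the call of no gene in the set. As a check of identity, the luminal prostate gene KLK3 was present in either line (1190 against 141 CPM), with a log2FC of −3.08. Of 10 luminal genes tested, 1 was higher (KRT8) and 5 were lower past the threshold, among them KLK3, KLK2, FOLH1 and SLC45A3. Of all genes tested, 23.3% were higher and 19.5% lower past it. KLK2 decreased from 379 ± 7.34 to 94.9 ± 8.55 CPM and SLC45A3 had a log2FC of −4.73. The leukocyte markers PTPRC and CD3E reached at most 5 counts and 1 count in any library. CD68, from the same list, had 8, 2 and 5 counts in parental and 13, 0 and 3 in LNCaP-enzaR libraries. KRT8, FOLH1, PTPRC, CD3E and CD68 were chosen after their values were seen. In bulk RNA, fewer cells that express a gene and less RNA per cell cannot be told apart.

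Of the 10 genes, 9 passed the filter. DDC, ENO2 and NCAM1 rose, SYT4, SOX11 and EZH2 fell, and SYP, REST and ONECUT2 did not reach 1.5-fold. That is 6 of 9 past the threshold, against 42.7% of all genes tested, with 3 higher (23.3% of all genes) and 3 lower (19.5%). These shares over all genes tested also stand against the counts of the lists below. An adjusted p of at most 0.05 at any fold was reached by all 9, against 66.3% of all genes tested. For all 9 the libraries of the lines did not overlap, 5 above and 4 below the parental ones, against 70.6% of all genes tested, 35.6% above and 35.0% below. The median log2FC of the 9 was 0.31, against 0.01 over all genes tested. The set thus moved in both directions. SOX2 was not tested, since it held at most 3 counts in any library.

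**Figure D1:**
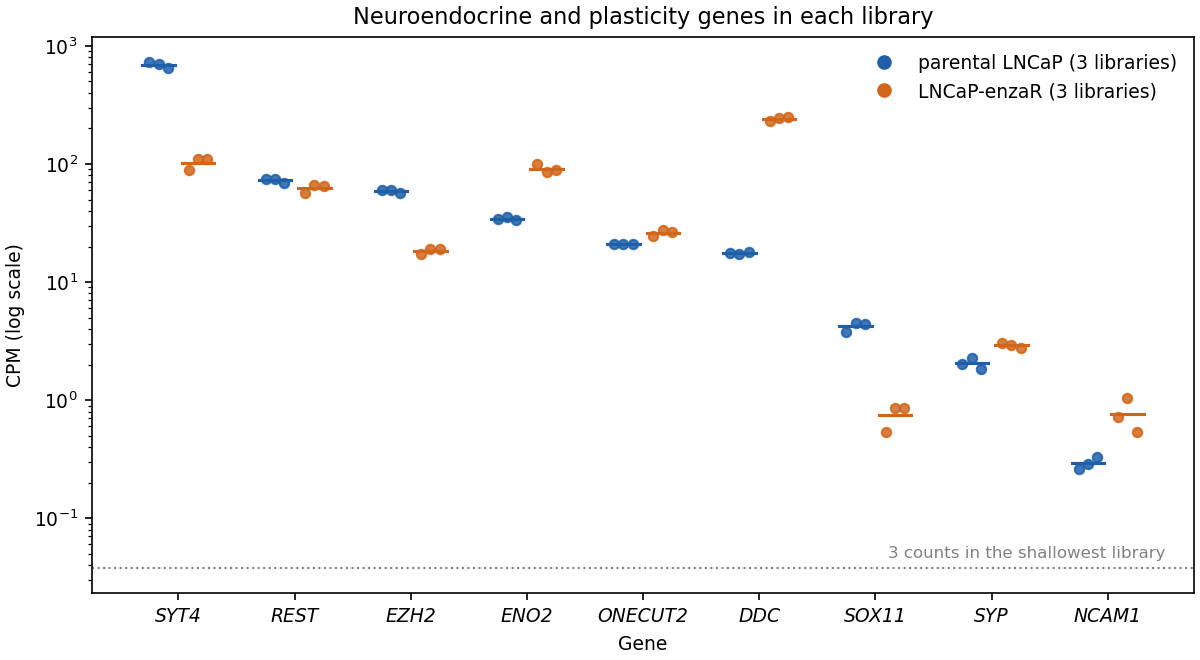
Expression of the 9 genes tested in each library, as CPM on a log axis, with parental LNCaP in blue and LNCaP-enzaR in orange; points are single libraries, horizontal bars are means, and the dotted line is the CPM of 3 counts in the shallowest library. SYT4 averaged 693 CPM in parental and 102.6 CPM in LNCaP-enzaR libraries, and DDC 17.6 and 240.5 CPM.

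DDC encodes aromatic L-amino acid decarboxylase, which makes dopamine and serotonin from their amino acid precursors. DDC (ENSG00000132437.18, chromosome 7, 50458436 to 50565405, GRCh38) had 17.6, 17.3 and 17.9 CPM in the parental libraries and 229, 243 and 249 CPM in LNCaP-enzaR. Every resistant library was far above every parental one, and the parental libraries were nearly equal. The log2FC was 3.77 (SE 0.061, with an edgeR adjusted p of 5.93e-15), a 13.7-fold rise. It was the 498th highest of all genes tested. Per kilobase of exon, DDC moved from rank 6176 to rank 423 of the genes tested, and among the 9 it was the highest in LNCaP-enzaR at 78.0 CPM per kilobase. Its exons share 3.70% of their bases with the antisense gene DDC-AS1, which had at most 10 counts in any library. Of 4 other genes tested that start within 1 Mb of it, 2 were higher past the threshold and all had a smaller log2FC, with a median of 0.72. Over all genes tested, 23.3% were higher past the threshold.

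Other steps of monoamine metabolism did not follow a single direction. Of 19 genes listed, 11 were tested, and 3 were higher and 2 lower past the threshold. These counts were near the shares of all genes tested, 23.3% higher and 19.5% lower. The median log2FC of the 11 was 0.16. The higher genes included SPR and SLC18A2, and the lower were MAOA and SLC6A3. SPR, an enzyme of tetrahydrobiopterin synthesis, rose from 42.6 ± 2.70 to 80.6 ± 8.76 CPM (SD, n = 3 each), a log2FC of 0.92. MAOA, which degrades monoamines, decreased from 285.5 ± 5.30 to 60.9 ± 1.48 CPM (log2FC −2.23, SE 0.054, edgeR adjusted p = 2.31e-13). SLC18A2, the vesicular monoamine transporter, went from 30, 60 and 59 to 102, 158 and 135 counts (log2FC 1.33). It shares 56.4% of its exonic bases with genes on the opposite strand, among them PDZD8, whose reads cannot be told apart here. SLC6A3, the dopamine transporter, went from 27, 23 and 30 to 12, 6 and 12 counts (−1.48). The enzymes that act before and after DDC were at the limit of detection. TH reached at most 2 counts in any library, TPH1 at most 8 and DBH at most 7, and these genes, like both transporters, were chosen after their values were seen. HDC, the histidine decarboxylase related to DDC, had 0 counts in every parental library and 6, 6 and 4 in LNCaP-enzaR.

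ENO2, the neuron-specific enolase of glycolysis, was higher in LNCaP-enzaR. ENO2 (ENSG00000111674.9, chromosome 12, 6913745 to 6923698) had 33.9, 35.7 and 33.7 CPM in parental libraries and 99.5, 85.6 and 88.9 CPM in LNCaP-enzaR. The lowest resistant library was thus well above the highest parental one. Its log2FC was 1.41 (SE 0.068, with an edgeR adjusted p of 2.36e-10), or 2.65-fold. ENO1, the enolase of most tissues, went the other way, from 2437 ± 68.3 to 1589 ± 120 CPM, a log2FC of −0.62 (SE 0.059). With upper-quartile scaling (−0.52) or without LNCaP-enzaR replicate 2 (−0.57), ENO1 was short of 1.5-fold. ENO3, the muscle enolase, was at 7.78 ± 0.693 and 8.07 ± 0.275 CPM (log2FC 0.05, SE 0.095). Per kilobase of exon, the ratio of ENO2 to ENO1 was 0.0167 to 0.0175 in parental and 0.0697 to 0.0703 in LNCaP-enzaR libraries. The difference reached the smallest p that 3 against 3 libraries allow (two-sided exact permutation test, p = 0.10). ENO1 therefore remained far above ENO2 in both lines.

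SYT4 encodes synaptotagmin 4, a membrane protein of secretory vesicles, and it showed the largest decrease of the set. SYT4 (ENSG00000132872.12, chromosome 18, 43267892 to 43277535) had 730, 700.5 and 648 CPM in parental libraries and 88.5, 109.6 and 109.8 CPM in LNCaP-enzaR. These correspond to 50932 to 67602 and to 7639 to 10897 counts. This is a log2FC of −2.76 (SE 0.083, with an edgeR adjusted p of 1.94e-12), a 6.75-fold decrease. Per kilobase of exon, SYT4 was the highest of the 9 in parental cells at 160.9 CPM per kilobase, ranked 188 among genes tested in parental cells and 1750 in LNCaP-enzaR. The ratio of DDC to SYT4 per kilobase of exon moved from 0.0355 ± 0.00255 to 3.29 ± 0.283 (SD, n = 3 each, two-sided exact permutation test, p = 0.10). DDC was below SYT4 in every parental and above it in every resistant library. SYT11, the close relative of SYT4, had at most 21 counts in any library and a log2FC of 0.17 (SE 0.812). Its sign turned without parental replicate 1 (−0.44).

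SYP encodes synaptophysin, a membrane protein of synaptic vesicles that is used in diagnosis. SYP (ENSG00000102003.11, chromosome X, 49187815 to 49200199) had 2.04, 2.28 and 1.83 CPM in parental libraries and 3.04, 2.96 and 2.77 CPM in LNCaP-enzaR. The groups were apart, but by less than the fold limit. The log2FC was 0.51 (SE 0.143, with an edgeR adjusted p of 0.00616), which is 1.42-fold. It was past the limit with upper-quartile scaling (0.61) and without parental replicate 2 (0.59). SYPL1, a related protein of non-neuronal vesicles, was at 119 ± 4.395 and 81.8 ± 7.75 CPM, a log2FC of −0.54 that was short of the limit but past it without LNCaP-enzaR replicate 2 (−0.59). SYPL2 had 0, 1 and 5 counts in parental libraries and 8, 24 and 13 in LNCaP-enzaR, and was not tested.

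NCAM1, the neural cell adhesion molecule also known as CD56, was near the limit of detection. NCAM1 (ENSG00000149294.17, chromosome 11, 112961247 to 113278436) had 24, 26 and 26 counts in parental libraries and 62, 92 and 53 in LNCaP-enzaR. All resistant libraries were higher, but they spread widely. The levels were 0.292 ± 0.036 and 0.765 ± 0.257 CPM (SD, n = 3 each), a log2FC of 1.39 (SE 0.332, with an edgeR adjusted p of 0.00203). Without LNCaP-enzaR replicate 2 it was 1.10 and remained past the threshold. Antisense genes share 7.89% of its exonic bases with it. NCAM2, a homolog, was abundant at 479 ± 16.1 and 336 ± 25.9 CPM and did not reach 1.5-fold (log2FC −0.51, SE 0.061).

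**Figure D2:**
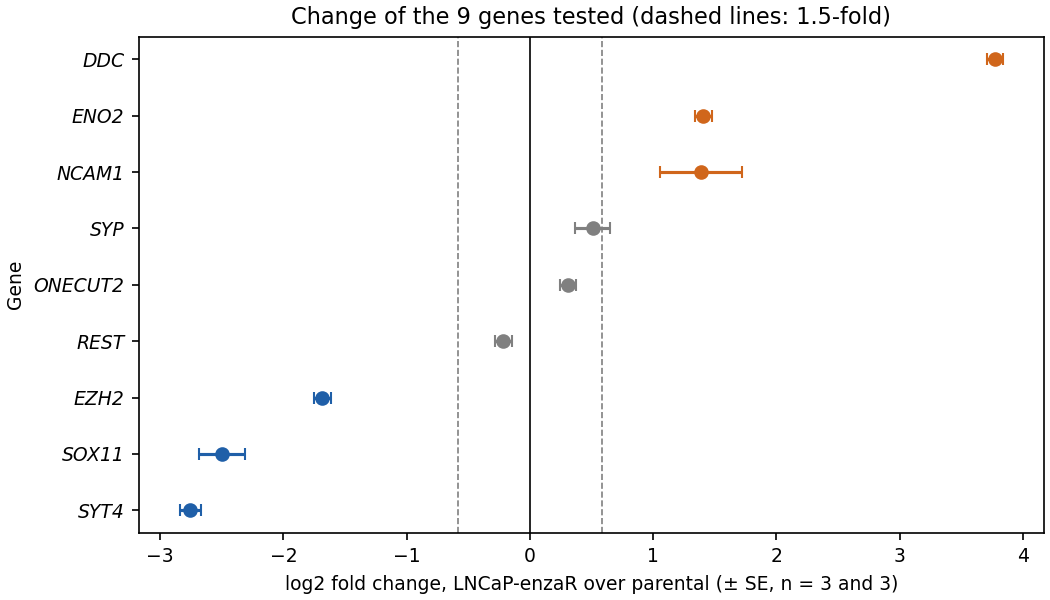
Log2 fold change of each gene tested, LNCaP-enzaR over parental, with its SE (3 libraries each); orange genes were higher and blue genes lower past the threshold, gray genes were not past it, and dashed lines are at 1.5-fold. Values run from −2.76 for SYT4 to 3.77 for DDC, with the widest error at NCAM1.

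Other neuroendocrine markers were mostly higher where they were detected. Of 30 listed beside the members, 26 were in the table and 13 were tested. Of the 13, 9 were higher and SCG5 was lower past the threshold, against 23.3% and 19.5% of all genes tested. The median log2FC of the 13 was 1.65. Since a gene with no counts in 1 line enters only if it is high in the other, the 13 tested are not a sample of the list. The 3 with the smallest p among those of at least 1 CPM were PAM, CPE and L1CAM. PAM, which amidates peptides, rose from 4.18 ± 0.285 to 57.6 ± 2.57 CPM (SD, n = 3 each), a log2FC of 3.78 (SE 0.080, with an edgeR adjusted p of 6.02e-14). CPE, which trims prohormones, rose from 52.1 ± 1.25 to 163 ± 3.75 CPM (log2FC 1.65). L1CAM, a neural adhesion molecule, had 4, 6 and 14 counts in parental and 390, 369 and 335 in LNCaP-enzaR libraries. Its log2FC was 5.43, or 5.06 to 6.17 with 1 library left out, the highest without parental replicate 3. SCG5, a chaperone of prohormone processing, fell from 23, 24 and 24 to 10, 4 and 14 counts (−1.41). It shares 51.9% of its exonic bases with ARHGAP11A-SCG5 on the same strand and the antisense SCG5-AS1, which may affect its low counts. SCG5, BEX1 and SCG3 were chosen after their values were seen. BEX1 and SCG3 held at most 3 counts in any parental library and were at least 21.0-fold and 7.10-fold higher, against 3 counts in the shallowest parental library.

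Several classical markers and factors of neuroendocrine carcinoma were near the floor in both lines. CHGA, which encodes chromogranin A, had 10, 3 and 10 counts in parental and 6, 8 and 8 in LNCaP-enzaR libraries. CHGB reached at most 6 counts in any library, SYN1 at most 6, SCG2 at most 5 and SNAP25 at most 8. Among the factors, INSM1 had 0, 0 and 3 counts in LNCaP-enzaR and none in parental libraries. POU3F2 reached at most 10 counts and NKX2-1 at most 7. SRRM4, a splicing factor that acts on REST transcripts, had 7, 9 and 9 counts in parental and 3, 2 and 0 in LNCaP-enzaR libraries. All of these genes were chosen after their values were seen. A level of 3 counts corresponded to 0.0302 to 0.0382 CPM, so differences below that were not detectable at this depth.

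SOX2, a pluripotency and neural factor, belongs to this group. SOX2 (ENSG00000181449.4, chromosome 3, 181711925 to 181714436) had 0 counts in every parental library and 1, 0 and 3 counts in LNCaP-enzaR. A count of 0 allows up to 0.0324 to 0.0382 CPM in the parental libraries, and no fold is given. The noncoding SOX2-OT, within which SOX2 lies, had 18, 8 and 8 counts in parental and 68, 42 and 79 in LNCaP-enzaR libraries.

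**Figure D3:**
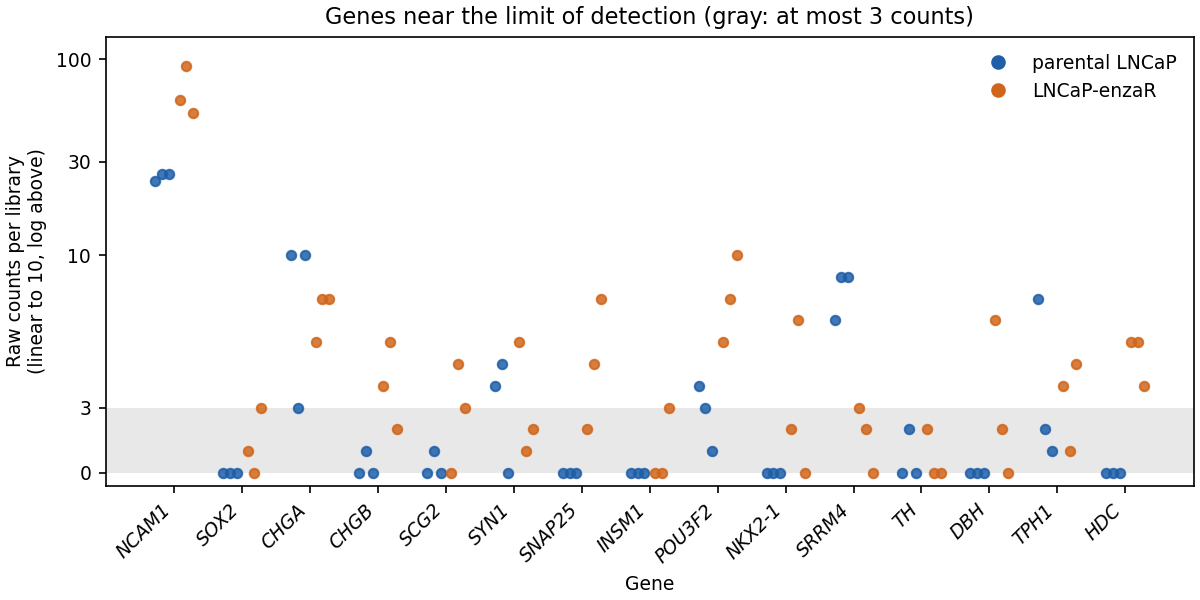
Raw counts per library of NCAM1, SOX2 and 13 related genes near the limit of detection; the axis is linear up to 10 and logarithmic above, and the gray band marks at most 3 counts. The highest NCAM1 library had 92 counts, and no other gene shown exceeded 10 counts in any library.

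SOX11, a factor of the same family that is active in developing neurons, fell. SOX11 (ENSG00000176887.7, chromosome 2, 5692384 to 5701385) had 351, 413 and 350 counts in parental and 46, 76 and 85 in LNCaP-enzaR libraries, or 3.79, 4.54 and 4.46 against 0.533, 0.861 and 0.857 CPM. No parental library came near a resistant one. Its log2FC was −2.50 (SE 0.186, with an edgeR adjusted p of 2.59e-08), a 5.65-fold decrease. Of 44 other genes tested within 5 Mb of SOX11, 9 were higher and 9 lower past the threshold, with a median log2FC of 0.17. These counts were near the shares of all genes tested, 23.3% higher and 19.5% lower. SOX4 and SOX12, which form the SOXC group with SOX11, fell as well. SOX4 went from 186 ± 2.18 to 46.1 ± 3.66 CPM (log2FC −2.01) and SOX12 from 203 ± 7.95 to 123 ± 8.78 CPM (−0.72). Among 5 other SOX genes tested, SOX8 and SOX6 were higher and SOX9 and SOX15 lower past the threshold, of which SOX6 (log2FC 1.12) and SOX15 (−1.41) were named after their values were seen. SOX8 rose from 9.22 ± 0.956 to 60.9 ± 2.96 CPM (log2FC 2.72), and SOX9, a factor of epithelial and cartilage development, fell from 213, 261 and 197 to 5, 12 and 6 counts (−4.90).

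ONECUT2, a homeobox factor that has been linked to neuroendocrine prostate cancer, differed little. ONECUT2 (ENSG00000119547.6, chromosome 18, 57435374 to 57491298) had 21.2, 21.0 and 21.1 CPM in parental libraries and 24.6, 27.4 and 26.5 CPM in LNCaP-enzaR. The parental libraries were nearly equal, and the groups did not overlap. This gave a log2FC of 0.31 (SE 0.068, with an edgeR adjusted p of 0.00113), a 1.24-fold difference short of the limit in every alternative run (0.28 to 0.41). ONECUT1 rose by 2.15 on the log2 scale from 20, 4 and 9 counts to 40, 54 and 60. With 1 library left out the rise was 1.73 to 2.83, the highest without parental replicate 1. ONECUT3 had at most 2 counts in any library. Of 16 other neuroendocrine factors listed, 4 were tested, with 1 higher and 2 lower past the threshold. Over all genes tested, 23.3% were higher and 19.5% lower. The median log2FC of the 4 was −0.83. HES6 fell from 24.2 ± 1.11 to 9.72 ± 0.966 CPM (log2FC −1.32) and LHX2 from 4.81 ± 0.280 to 1.58 ± 0.331 CPM. POU2F3, the factor of tuft cells, rose from 0.807 ± 0.096 to 1.57 ± 0.163 CPM (0.96).

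REST itself stayed abundant. REST (ENSG00000084093.19, chromosome 4, 56907876 to 56966808) had 75.2, 74.0 and 69.0 CPM in parental libraries and 56.8, 66.6 and 64.5 CPM in LNCaP-enzaR. The resistant libraries were slightly lower, with replicate 1 the lowest. The log2FC was −0.22 (SE 0.069, with an edgeR adjusted p of 0.0125), or 1.16-fold, and the edgeR adjusted p was above 0.05 with upper-quartile scaling (0.149) and without parental replicate 1, in a range of 0.00482 to 0.149 over the alternatives. Gene counts do not show which splice form of REST was made. Of 20 partners of REST in its corepressor complexes or its turnover, all tested, 7 were lower and 2 higher past the threshold. Over all genes tested, 19.5% were lower and 23.3% higher. The higher partners included RCOR3 (0.68), named after its values were seen, and the median log2FC of the 20 was −0.44. CTDSPL, a phosphatase recruited by REST, fell from 53.5 ± 1.78 to 21.3 ± 1.21 CPM (SD, n = 3 each, log2FC −1.33). The histone deacetylase HDAC2 decreased from 244 ± 5.39 to 126 ± 4.66 CPM (−0.95), and KDM1A, the histone demethylase of the CoREST complex, from 150 ± 3.02 to 78.7 ± 2.51 CPM (−0.93).

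EZH2 was lower in LNCaP-enzaR, as were proliferation genes. EZH2 (ENSG00000106462.12, chromosome 7, 148807257 to 148884321) had 60.7, 59.9 and 57.3 CPM in parental libraries and 17.3, 19.0 and 19.0 CPM in LNCaP-enzaR. Replicates of each line lay within a narrow range. Its log2FC was −1.68 (SE 0.066, with an edgeR adjusted p of 2.80e-11), a 3.21-fold decrease. EZH1, the other PRC2 methyltransferase, which is known for its expression in resting cells, rose from 13.8 ± 0.733 to 27.2 ± 0.874 CPM (log2FC 0.97, SE 0.072, adjusted p = 2.31e-08). Per kilobase of exon, EZH2 was 2.78 ± 0.148 times as high as EZH1 in parental cells and 0.441 ± 0.037 times as high in LNCaP-enzaR (SD, n = 3 each, two-sided exact permutation test, p = 0.10). By this measure EZH2 was above EZH1 in every parental and below it in every resistant library. The lengths were all annotated exonic bases, 10774 for EZH2 and 6988 for EZH1. Lengths of the transcripts made were not measured, so which transcript predominated in LNCaP-enzaR is not settled.

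The other PRC2 subunits differed by less than EZH2. Of 11 tested, 3 were lower past the threshold and none was higher, against 19.5% and 23.3% of all genes tested. The median log2FC of the 11 was −0.51. MTF2 (−0.94) and PHF19 (−0.75), which bind the complex to chromatin, and the core subunit SUZ12 (−0.64) were those past it. SUZ12 was short of 1.5-fold with upper-quartile scaling or without LNCaP-enzaR replicate 1 (−0.54 each). Beside EZH2, 19 of 20 proliferation genes were lower past the threshold, against 19.5% of all genes tested. The median log2FC of the 20 was −1.81, with a summed level of 3681 to 3748 CPM in parental and 1189 to 1258 CPM in LNCaP-enzaR libraries. MKI67, UHRF1 and BIRC5 had log2FC of −2.45, −2.55 and −1.98. The part of proliferation in the EZH2 difference was not tested. AURKA, a mitotic kinase named among plasticity regulators, fell by 1.65 on the log2 scale. Of the 13 plasticity regulators tested, 8 were lower and PEG10 was higher past the threshold. The shares over all genes tested were 19.5% lower and 23.3% higher. Among the lower genes, PROM1, named after its values were seen, had 44, 52 and 34 counts in parental and 3, 2 and 0 in LNCaP-enzaR libraries. It was tested only through its parental counts, so the 13 tested do not stand for the list. PEG10, a gene of retroviral origin, rose from 13.8 ± 0.556 to 46.1 ± 2.50 CPM (log2FC 1.74), whereas TWIST1, a mesenchymal factor, decreased from 26.8 ± 0.534 to 7.29 ± 1.07 CPM (−1.88).

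Genes of synaptic vesicles, the compartment of SYP and SYT4, went both ways. Of 25 listed, 17 were tested, and 11 were higher and 2 lower past the threshold. The shares over all genes tested were 23.3% higher and 19.5% lower. The median log2FC of the 17 was 1.11. SYNGR1, a relative of SYP, rose from 10.3 ± 1.06 to 50.8 ± 3.60 CPM (SD, n = 3 each, log2FC 2.30). RAB3B, a vesicle GTPase, fell with SYT4, from 132.5 ± 6.45 to 41.1 ± 0.767 CPM (−1.69). SV2C, a vesicle protein named after its values were seen, was the other lower gene (−1.11). SV2B, also named after its values were seen, had 0 counts in every parental library and was tested only through its counts in LNCaP-enzaR, so the 17 tested do not stand for the 25 listed. With at least 10 counts required in every library, 9 of these genes were past the threshold, against 13.

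**Figure D4:**
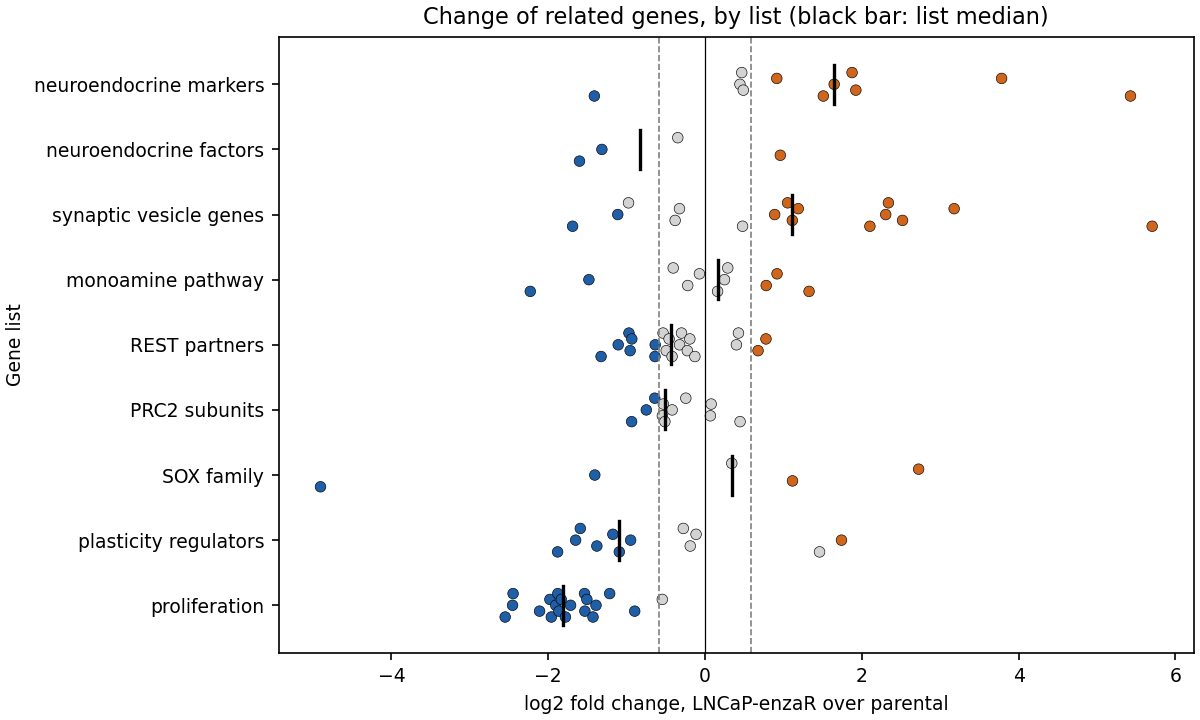
Log2 fold change, LNCaP-enzaR over parental, of the tested genes of 9 lists; each point is a gene, orange and blue mark genes higher and lower past the threshold, gray marks genes not past it, dashed lines are at 1.5-fold and black bars are list medians. Genes with at most 3 counts in every library of a line are left out as points but enter the medians. Medians run from −1.81 for proliferation to 1.65 for neuroendocrine markers.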

How the data were processed

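RNA from 3 parental and 3 LNCaP-enzaR flasks was sequenced as paired ends. The authors trimmed reads with Cutadapt, aligned them with STAR to GRCh38.p13 with GENCODE v38, and deposited raw counts per gene from featureCounts. The counting options for strand, multiple alignments and read pairs are not given in the sources used here. Reads of a gene and its antisense partner therefore cannot be told apart.

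Groups and replicate numbers came from the sample titles. Counts were filtered by filterByExpr, which left 19711 genes with 99.96% of the counts, scaled by TMM and tested with the robust edgeR quasi-likelihood test (edgeR 4.0.16, R 4.3.3) without covariates. The study used DESeq2, which was run here (1.42.0) as an alternative. SE is the log2 fold change divided by the square root of F. Exon lengths, strand and overlaps were taken from GENCODE v44, in which 99.8% of the genes were found. The fit was tested on simulated data. Floors cover counting error only. No pair of libraries was a duplicate (chi-square per degree of freedom of at least 4.61).

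The genes and lists were chosen with earlier results of these data known. Genes named beside the members are their relatives, up to 3 genes per list with the smallest p past the threshold and a mean of at least 1 CPM, KLK3 and MKI67 among the checks, and for members past the threshold with at least 5 CPM the 2 genes of most similar pattern. Listed genes that were not in the table were not analysed here, and a few others that the rule names are not reported here. The alternatives were DESeq2, other scalings and filters, the replicate number as a block, only protein-coding genes, each library left out, other fold limits and, added after the data were seen, no mitochondrial genes.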

Additional observations from a re-analysis of the deposited data

How the results depend on the processing

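The 6 calls among the members held under every alternative run that kept the 1.5-fold limit, and without a minimum fold 9 members passed. SYP (0.51) passed the limit with upper-quartile scaling (0.61), and it ranged from 0.43 to 0.59 over the fits that left out 1 library. Without a minimum fold, 13074 of all genes passed, and with a limit of 2-fold 5561 did, against 8425. At least 10 counts in every library left 6 neuroendocrine markers past the threshold, against 10, and 1 CUT homeobox gene, against 3, since fewer genes were tested. Among other named genes, 46 of 51 tested kept direction and side. ENO3 (0.05, or −0.024 to 0.092 with 1 library left out) turned sign without parental replicate 3 and SYT11 (0.17, or −0.44 to 1.31) without parental replicate 1, and neither was past the threshold in any fit. Upper-quartile scaling shifted all log2FC values by a median of 0.10 and raised higher calls from 54.5% to 60.9% of all calls. List medians were the same with genes at the floor set to their bound. Each bound lay on the same side of its list median as the fitted value, so the medians could not move. Replicate numbers do not pair the libraries (correlations of same-numbered deviations −0.065 to −0.00041), and with the number as a block 8212 genes and 6 members were past the threshold. Low counts limit NCAM1, and SOX2 could not be tested at this depth.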

Other observations

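Genes of the neural and glial list went both ways. MAP2, a microtubule protein of neuronal dendrites, rose from 31.0 ± 1.27 to 427 ± 37.9 CPM (SD, n = 3 each, log2FC 3.79, SE 0.074, edgeR adjusted p = 3.20e-14). NEFL, a neurofilament, fell from 16.1 ± 0.448 to 2.23 ± 0.271 CPM (−2.86), and MBP, a myelin protein, from 50.8 ± 2.37 to 8.97 ± 0.550 CPM (−2.50). Of the 7 genes, 4 were tested, and MAP2 and RBFOX3 (1.89, named after its values were seen) were higher and NEFL and MBP lower past the threshold. RBFOX3 rested on few counts, 9, 2 and 10 in parental and 18, 29 and 37 in LNCaP-enzaR libraries (SE 0.578). The list summed to 96.0 to 99.6 CPM in parental and 396 to 461 CPM in LNCaP-enzaR libraries. MAP2 alone held 383 to 450 CPM in LNCaP-enzaR libraries, so the higher sum reflects MAP2 and not the list.

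Of the fibroblast list, COL1A1 fell from 13.3 ± 1.496 to 4.29 ± 0.436 CPM and PDGFRB rose from 0.641 ± 0.038 to 1.73 ± 0.295 CPM, LUM rose by 1.78 on the log2 scale, and the list summed to 14.7 to 17.9 CPM in parental and 8.21 to 8.95 CPM in LNCaP-enzaR libraries. THY1 held at most 2 counts in any library, and LUM, THY1 and VWF were named after their values were seen. Immune and endothelial markers summed to 5.60 to 6.14 and 3.96 to 4.46 CPM, of which VWF had 5.74 ± 0.329 and 4.15 ± 0.209 CPM. Of 4 CUT homeobox genes, CUX1 (log2FC 0.62) and SATB1 were higher and CUX2 (−2.12) lower past the threshold. CUX2 had 87, 98 and 64 counts in parental and 28, 26 and 4 in LNCaP-enzaR libraries (SE 0.465). SATB1 had 0 counts in every parental library and 56, 85 and 54 in LNCaP-enzaR, at least 18.8-fold higher against 3 counts in the shallowest parental library, and it and CUX2 were named after their values were seen.

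Among 10183 protein-coding genes of at least 5 CPM, the patterns over the 6 libraries nearest to those of the members were, by root-mean-square difference of centred log2 CPM, PAM (0.061) and MAP2 (0.064) for DDC. They were SPATA20 (0.022) and ZFYVE27 (0.038) for ENO2, DDIAS (0.065) and STARD4 (0.066) for SYT4, and PRIM2 and CCDC138 (0.019 each) for EZH2. These 6 points come from 2 lines.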
